A study of Mus musculus with 4 samples.

Results

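The genes described here encode SR proteins (Srsf), heterogeneous nuclear ribonucleoproteins (Hnrnp), proteins of the small nuclear ribonucleoproteins (Snrp) and subunits of the splicing factor SF3 (Sf3a, Sf3b). They were chosen by gene symbol alone, without pseudogene names, which gave 52 of the 41342 named genes in the deposited gene count table. RNA of splenic B cells was sequenced in 4 libraries, 1 resting and 1 LPS-activated for each of 2 genotypes on a 129 background. ΔleftPAL mice are homozygous for a deletion in the 3′ regulatory region of the heavy chain gene cluster that takes out the enhancers hs3a and hs1,2 with the repeats between them. ΔIRIS mice are homozygous for a change that removes the intervening repeats only, so that all enhancers remain, with hs3a inverted. Cells were purified from spleen by removal of CD43+ cells, and the activated ones spent 48 h in culture with bacterial lipopolysaccharide (LPS), an activator of B cells, at 5 μg per ml. By the sample labels each library came from a pool of B cells of 4 animals, whereas the study's methods describe how RNA was combined in other terms. Resting cells were used fresh. No library here came from cells cultured without LPS, so effects of LPS and of culture cannot be told apart. wt libraries were not analysed here.

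Splicing removes introns from pre-mRNA on the spliceosome, most of whose small nuclear RNAs are carried by a ring of Sm proteins. The U1 particle recognises the start of an intron and the U2 particle, with SF3a and SF3b, its branch point. SR proteins and hnRNPs bind the pre-mRNA and favour or oppose the use of exons, and several of them limit their own amount through transcripts that keep an intron or take in an exon with an early stop codon, which nonsense-mediated decay destroys. Resting B cells are small and quiescent, and activation by LPS makes them grow and divide.

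With 1 library per group, no 2-fold call below has a replicate check or a test. The difference between LPS-activated and resting libraries was tested only in a fit that takes the genotypes as replicates of each other. Levels are in CPM (counts divided by TMM effective library sizes), and ratios are log2 of CPM plus 0.5. Each interval is a 95% exact Clopper-Pearson interval converted to a log2 ratio, and covers counting error only. A gene was called higher or lower when it differed by at least 2-fold. Total counts were 23621743 to 29778717 per library, and 11286 genes averaging 50 counts or more were compared. Of the 52 members 50 passed this minimum. Srsf12 had 2 to 4 counts and Snrpn 0 to 5 counts per library, near or under the floor of 3 counts, and neither is compared.

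Markers of other cell types also differed between the resting and LPS libraries. The summed level of 5 erythroid genes was 41238 CPM in resting ΔleftPAL and 28559 CPM in resting ΔIRIS cells, against 58.1 and 124 CPM after LPS. The sum of 5 myeloid genes went from 305 to 8.31 CPM in ΔleftPAL and from 414 to 17.5 CPM in ΔIRIS cells. Among them Itgam went the other way in ΔIRIS cells, from 10.5 to 15.4 CPM, and from 13.1 to 5.20 CPM in ΔleftPAL cells. The sum of 5 T cell genes went from 19.3 and 25.2 CPM to 0.111 and 0.0341 CPM, with 3 and 4 of the 5 genes at 0. The 3 NK cell genes summed to 4.05 and 1.41 CPM at rest and to under 0.1 CPM after LPS. The 5 B cell genes summed to 3218 and 2781 CPM at rest and to 2015 and 2146 CPM after LPS, and all 8 proliferation genes rose in both genotypes. Of 4 plasmablast genes 2 rose in both. The part of these differences in the results below was not tested. In bulk RNA, a change in the number of cells of a type and a change in RNA per cell cannot be told apart.

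On LPS, 19 of the 50 members rose at least 2-fold in ΔleftPAL cells, against a background of 20.1% of all genes compared. In ΔIRIS cells 20 members rose, against 21.6%, and 18 rose in both genotypes, against 17.3%. No member fell in ΔleftPAL cells, where 15.5% of all genes did, and 1 member, Srsf5, fell in ΔIRIS cells, where 17.3% did. No member fell in both, against 13.1% of all genes. In an edgeR quasi-likelihood fit with the genotype as a block, 37 members passed a Benjamini-Hochberg adjusted p of 0.05 as higher after LPS, against 36.4% of all genes, and 2 as lower, against 27.9%. The 2 were Srsf5 (log2 ratio -0.90, edgeR adjusted p = 0.00423) and Sf3b1 (-0.45, edgeR adjusted p = 0.0306). This fit has 1 residual degree of freedom, shares its spread across genes and assumes that both genotypes respond alike. Across the alternatives 26 to 40 members were higher and 1 to 3 lower, with 26 and 1 when the activated ΔIRIS library was left out, without the block, where 27.0% of all genes were higher and 19.6% lower. Sf3b1 lost its call without the block (edgeR adjusted p = 0.0609) and kept it with DESeq2 (adjusted p = 0.0169), and Srsf5 passed in both. Each fit without 1 library leaves a single library in 1 arm, which is assumed to vary like the 2 libraries of different genotype in the other. Over those 4 edgeR fits the adjusted p was 0.00169 to 0.0469 for Srsf5 and 0.0138 to 0.267 for Sf3b1. The median log2 ratio of the members was 0.79 in each genotype, while that of all genes was 0.12 in ΔleftPAL and 0.13 in ΔIRIS cells. The count depended on scaling: 8 of the 18 stayed at least 2-fold higher in both genotypes under each of the 7 other scalings and count tables tried, and these were Snrpd2, Snrpd1, Snrpf, Snrpg, Snrpe, Snrpa1, Sf3a3 and Hnrnpab. The plot by role shows every member.

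**Figure D1:**
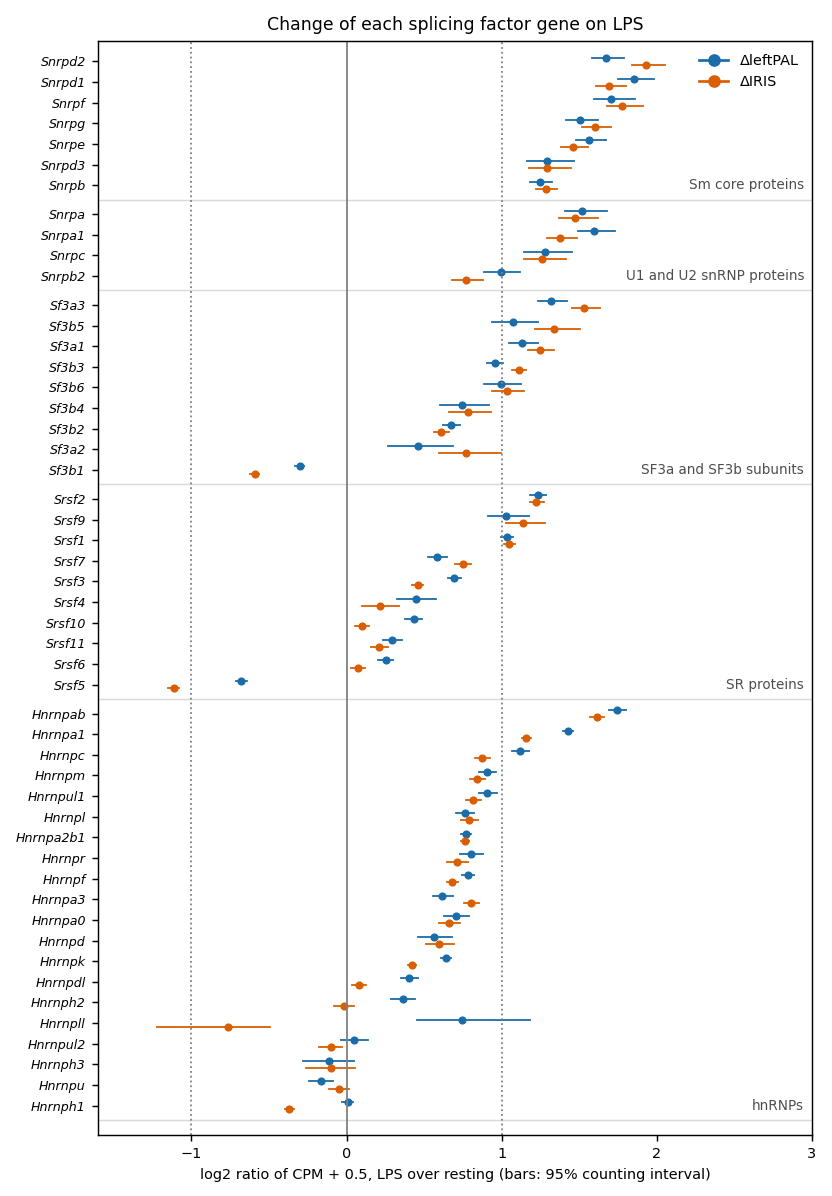
Log2 ratio of CPM plus 0.5, LPS over resting, for the 50 members compared, grouped by role, with ΔleftPAL in blue and ΔIRIS in orange. Bars are 95% counting intervals and dotted lines mark 2-fold. All 7 Sm genes lie to the right of the 2-fold line in both genotypes, and Srsf5 lies furthest to the left.

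The Sm proteins form the ring around the spliceosomal small nuclear RNAs. All 7 that were compared rose in both genotypes, where 17.3% of all genes did. Their median log2 ratio was 1.56 in ΔleftPAL and 1.60 in ΔIRIS cells. Snrpd2 was measured at 39.5 CPM in resting and 127 CPM in LPS-activated ΔleftPAL cells, and at 30.7 and 118 CPM in the ΔIRIS cells. Its log2 ratios were 1.68 (interval 1.58 to 1.79) and 1.93 (1.84 to 2.06). Snrpd1 stood at 30.5 and 111 CPM in ΔleftPAL and at 38.1 and 124 CPM in ΔIRIS cells. Snrpf went from 24.3 to 80.4 CPM and from 26.4 to 91.6 CPM. In each of these genes both LPS libraries lay above both resting ones. Snrpb had the highest CPM of the ring genes, a scale not corrected for gene length, and the smallest log2 ratios, 1.25 and 1.28, at 91.9 and 219 CPM in ΔleftPAL and 93.0 and 227 CPM in ΔIRIS cells. Snrpg (1.51 and 1.60), Snrpe (1.56 and 1.46) and Snrpd3 (1.29 and 1.29) lay between. With values in resting and activated ΔleftPAL and then ΔIRIS cells, Snrpg was measured at 39.5, 113, 41.6 and 127 CPM. Snrpe was measured at 46.2, 138, 51.5 and 143 CPM, and Snrpd3 at 20.1, 49.9, 22.2 and 55.2 CPM. All 3 were higher in both activated libraries than in both resting ones. The level of Snrpg rests on counting that differs between tables, since its gene counts were 1.41 to 1.46 times its kallisto estimated counts.

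Of the 4 genes for proteins particular to the U1 and U2 particles, 3 rose in both genotypes, where 17.3% of all genes did. Snrpa, which encodes a U1 protein, was measured at 23.8 CPM in both resting libraries and at 69.3 and 67.1 CPM after LPS in ΔleftPAL and ΔIRIS cells. Snrpa1, which encodes a U2 protein, went from 30.5 to 93.0 CPM in ΔleftPAL and from 41.4 to 108 CPM in ΔIRIS cells. Snrpc, which helps U1 recognise the intron start, had log2 ratios of 1.28 and 1.26. Its levels in resting and activated ΔleftPAL and then ΔIRIS cells were 19.4, 47.7, 21.6 and 52.3 CPM. Snrpb2, a U2 protein gene and close relative of Snrpa, did not reach 2-fold, with 0.99 and 0.77 and levels of 36.8, 73.8, 46.4 and 79.7 CPM in the same order. The log2 ratio of Snrpa exceeded that of Snrpb2 by 0.53 (ΔleftPAL) and 0.70 (ΔIRIS).

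**Figure D2:**
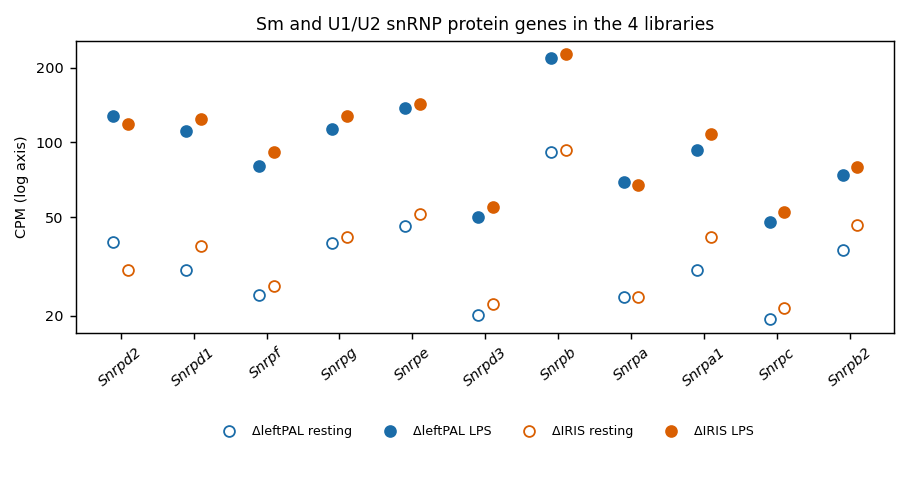
CPM, on a log axis, of the 7 Sm and 4 U1/U2 protein genes in each library, with resting libraries as open and LPS-activated libraries as filled circles, ΔleftPAL in blue and ΔIRIS in orange. Each gene has both filled circles above both open ones, and Snrpb has the highest CPM in all 4 libraries.

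The promoters of the members were read from RefSeq (build GRCm38.p6), 250 bases before to 50 bases after each start. A promoter was found for 44 of the 50 members. The ETS core CCGGAAG, on either strand, was present at 16 of the 44 members (36.4%), at 22.5% of the 7968 genes compared that had a promoter and at 9.93% of all genes in the table. The E-box CACGTG, which reads alike on both strands, was present at 6 members (13.6%), at 12.4% of genes compared and at 8.09% of all genes. Neither motif contains the other. The upstream 250 bases of 1 gene with the ETS core and 1 with E-boxes that rose are shown, both 5′ to 3′, with the motif in capitals. They lie at chr6:86371290-86371539 on the plus strand and chr7:27196272-27196521 on the minus strand.
Snrpg: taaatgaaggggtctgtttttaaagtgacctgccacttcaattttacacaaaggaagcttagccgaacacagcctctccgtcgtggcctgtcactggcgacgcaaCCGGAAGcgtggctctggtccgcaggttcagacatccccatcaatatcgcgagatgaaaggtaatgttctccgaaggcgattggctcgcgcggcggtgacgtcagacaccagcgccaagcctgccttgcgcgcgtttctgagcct
Snrpa: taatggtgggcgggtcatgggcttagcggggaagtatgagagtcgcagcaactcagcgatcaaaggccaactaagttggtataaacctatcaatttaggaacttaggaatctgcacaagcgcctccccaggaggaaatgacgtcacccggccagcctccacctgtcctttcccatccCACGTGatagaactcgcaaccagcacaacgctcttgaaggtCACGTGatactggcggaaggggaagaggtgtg
Srsf5, which fell in ΔIRIS cells, also held the ETS core, so the motif was found at members of either direction. A match describes letters and is no evidence of binding.

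SF3a and SF3b are the parts of the U2 particle that hold the branch point. Of the 9 subunit genes with an Sf3a or Sf3b symbol, 3 rose in both genotypes, where 17.3% of all genes did. Subunits with other symbols were not counted here. Sf3a3 was measured at 49.0 and 123 CPM in resting and activated ΔleftPAL cells and at 45.8 and 133 CPM in ΔIRIS cells, with log2 ratios of 1.32 and 1.53. Sf3b5 (1.07 and 1.34) and Sf3a1 (1.13 and 1.25) also passed 2-fold, but Sf3b5 did so in both genotypes under only 1 of the 7 other scalings and tables. Sf3b3 and Sf3b6 passed in ΔIRIS cells only, with 0.96 and 1.11 for Sf3b3 and 0.99 and 1.03 for Sf3b6. The difference between genotypes was not tested. Sf3b1, the largest SF3b subunit, stood apart from the others. It was measured at 784 CPM in resting and 636 CPM in activated ΔleftPAL cells, and at 1013 and 671 CPM in ΔIRIS cells. Its log2 ratios were -0.30 (-0.33 to -0.27) and -0.59 (-0.62 to -0.57), under 2-fold. By kallisto TPM of all its transcripts they were -0.81 and -1.21, which passes 2-fold in ΔIRIS cells. The log2 ratios in CPM of the other 8 of these genes were all above 0. The next lowest were Sf3a2 (0.46 and 0.77) and Sf3b2 (0.67 and 0.61). In the order resting and activated ΔleftPAL, then ΔIRIS, Sf3a2 was measured at 12.9, 17.9, 11.4 and 19.7 CPM and Sf3b2 at 187, 298, 201 and 307 CPM. Sf3b5 was measured at 21.9, 46.5, 18.8 and 48.2 CPM and Sf3a1 at 52.1, 115, 55.7 and 133 CPM, in that order.

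SR proteins bind exons and help to define them. Of 10 genes compared 3 rose in both genotypes, where 17.3% of all genes did. Srsf2 was measured at 170.0 and 400.5 CPM in resting and activated ΔleftPAL cells and at 199 and 465 CPM in ΔIRIS cells, with log2 ratios of 1.23 and 1.22. Srsf9 (1.03 and 1.14) and Srsf1 (1.03 and 1.05) were at the edge of 2-fold and kept it in both genotypes under only 1 of the 7 other settings. Srsf7, Srsf3, Srsf4, Srsf10, Srsf11 and Srsf6 ranged from 0.07 to 0.75. Srsf9 was measured at 27.1, 56.0, 25.5 and 56.7 CPM and Srsf1 at 294, 602, 352 and 728 CPM in resting and activated ΔleftPAL and then ΔIRIS cells. The lowest ratios above 0, on average over the genotypes, were those of Srsf6, measured at 249.9, 298, 283 and 298 CPM, and Srsf11, measured at 144, 176, 168 and 194 CPM, in the same order and with both activated libraries above both resting ones. Srsf5 was measured at 627 CPM in resting and 391 CPM in activated ΔleftPAL cells, and at 803 and 371 CPM in ΔIRIS cells. Both activated libraries were below both resting ones. The log2 ratio was -1.11 (-1.15 to -1.08) in ΔIRIS cells and -0.68 (-0.72 to -0.64) in ΔleftPAL cells.

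The hnRNPs package nascent RNA and often repress exons. Of 20 genes compared 2 rose in both genotypes, where 17.3% of all genes did, and the medians were 0.73 in ΔleftPAL and 0.67 in ΔIRIS cells. Hnrnpab, which also binds AU-rich RNA, went from 143 to 479.8 CPM in ΔleftPAL and from 176 to 539 CPM in ΔIRIS cells. Hnrnpa1, a repressor of exon use, went from 363 to 976 CPM and from 456 to 1018 CPM, with log2 ratios of 1.43 and 1.16. Hnrnpc passed in ΔleftPAL cells only (1.12, against 0.87 in ΔIRIS), at 152, 330.1, 192 and 353 CPM in resting and activated ΔleftPAL and then ΔIRIS cells. Some close relatives differed. The log2 ratio of Hnrnpd was lower than that of Hnrnpab by 1.18 and 1.01, and Hnrnpul1 exceeded Hnrnpul2 by 0.86 and 0.92. Others lay closer, with Hnrnpd above Hnrnpdl by 0.16 and 0.52, Srsf4 above Srsf6 by 0.19 and 0.14, and Srsf1 and Srsf9 apart by 0.00 and -0.09. Hnrnph1, which binds G-rich RNA, was measured at 450.0 and 452 CPM in resting and activated ΔleftPAL cells and at 676 and 524 CPM in ΔIRIS cells. Its log2 ratios were 0.01 and -0.37, the lowest of the hnRNPs on average. Hnrnpu (-0.16 and -0.05) and Hnrnph3 (-0.11 and -0.10) were also near 0. In that order, Hnrnpu was measured at 111, 99.3, 129.7 and 125 CPM and Hnrnph3 at 24.5, 22.6, 23.6 and 22.0 CPM. For Hnrnpu the gene counts were only 0.314 to 0.450 times the kallisto estimated counts. This factor was lower in both activated libraries than in both resting ones, so the small log2 ratios of Hnrnpu depend on the table used.

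Other genes of the pathway were read from lists, in which highest and lowest refer to the mean log2 ratio of both genotypes, and the counts stand beside the 17.3% of all genes that rose in both. Of the 8 LSm proteins, relatives of the Sm proteins most of which form the ring on U6, 6 rose in both genotypes, with Lsm2 highest (1.93 and 2.26). Of 14 genes listed for the SMN complex, which loads Sm rings, and for other steps of Sm assembly, 8 rose. Gemin6 was highest (2.55 and 3.22) and Gemin8 lowest (0.18 and 0.42). Of 18 U5 and tri-snRNP genes 7 rose, with Ppih highest (1.96 and 2.23) and Prpf4b lowest (0.15 and 0.10). Of 17 exon junction and SR export genes 7 rose, with Ddx39 highest (1.61 and 1.91) and Nxf1 lowest (-0.18 and -0.17). Among U2AF and branch point factors 3 of 15 rose (Phf5a highest), as did 1 of 21 Prp19 and catalytic factors (Prpf19), 1 of 8 minor spliceosome genes (Snrnp25) and 5 of 32 other regulators (Syncrip highest). None of 10 nonsense-mediated decay factors changed 2-fold in both genotypes. Of 8 kinases that phosphorylate SR proteins 0 were higher and 2 lower in both, where 13.1% of all genes were lower, while Srpk1 had log2 ratios of 0.86 and 1.34. Clk1 was measured at 528 and 146 CPM in resting and activated ΔleftPAL cells and at 793 and 130 CPM in ΔIRIS cells, and Clk4 had log2 ratios of -1.11 and -1.65.

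Transcripts were compared by their share of a gene's TPM in the kallisto table, with a change called where a transcript moved by at least 10 percentage points in the same direction in both genotypes. Of 38 members with a mean of at least 200 estimated counts and more than 1 transcript, 22 had such a change (57.9%), against 38.3% of the 6613 genes tested. The members had a median of 5.5 transcripts and all genes 5. The coding share is the part of the TPM in transcripts annotated as protein coding in GENCODE M21. In the 31 members that also have noncoding transcripts, its median was 51.3% at rest and 71.8% after LPS in ΔleftPAL cells, and 51.0% and 72.2% in ΔIRIS cells. For all genes of this kind the medians were 69.1% and 79.5%, and 70.5% and 81.7%. The share rose by at least 10 points in both genotypes in 18 of the 31 members, against 27.9% of genes, and fell in 1. By estimated counts, which do not correct for transcript length, the medians were 76.7% and 86.8%, and 76.9% and 86.9%, and the share rose by 10 points in both in 11, against 16.5% of genes by the same table. The retained intron share of 26 members had medians of 23.8% and 12.5% in ΔleftPAL and 26.1% and 12.0% in ΔIRIS cells, and fell by at least 10 points in both in 11 of them, against 22.4% of genes. In total RNA, unspliced pre-mRNA and transcripts annotated with a retained intron cannot be told apart. Over all genes, transcripts of that type took 5.21% and 4.68% of the TPM at rest and 2.91% and 2.66% after LPS. Coding transcripts took 81.1% and 82.7% at rest and 77.3% and 75.5% after LPS, and transcripts that M21 does not hold took 2.84% and 2.12%, then 5.17% and 12.1%.

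**Figure D3:**
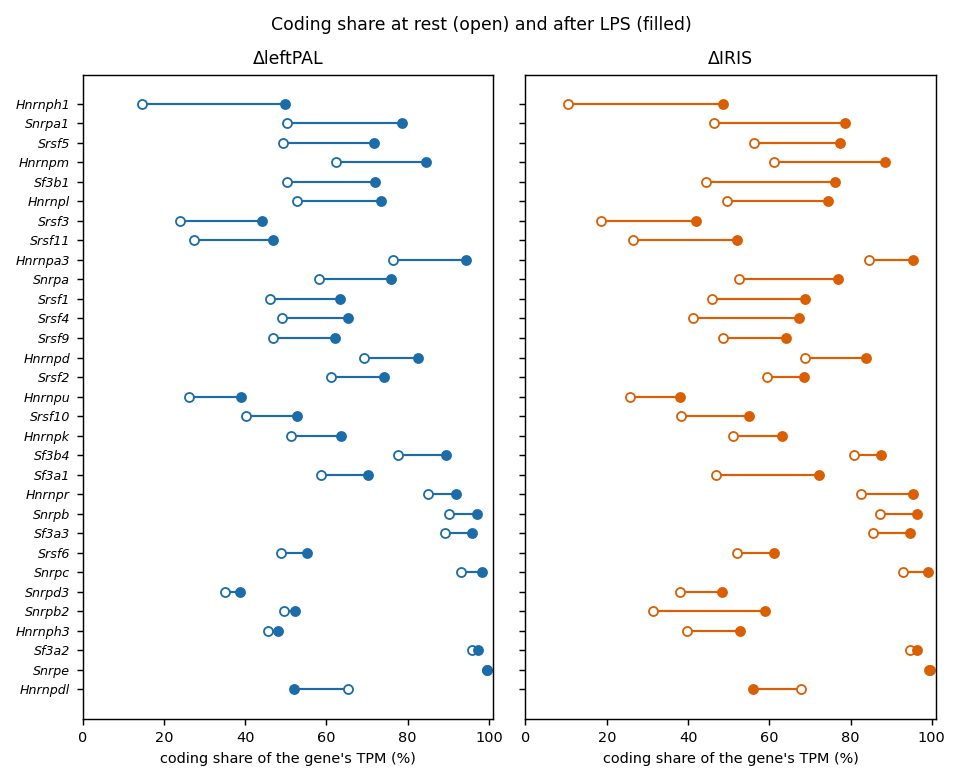
Coding share of each gene's TPM, in percent, for the 31 members with noncoding transcripts, with open circles at rest and filled circles after LPS, ΔleftPAL on the left and ΔIRIS on the right. The filled circle lies to the right of the open one for nearly every member, and to the left for Hnrnpdl in both genotypes.

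Hnrnph1 had the widest shift. Its coding share was 14.6% in resting and 49.9% in activated ΔleftPAL cells, and 10.5% and 48.7% in ΔIRIS cells. Its coding TPM was 56.5 and 145 in ΔleftPAL and 56.3 and 162 in ΔIRIS cells, 2.57-fold and 2.88-fold higher after LPS, while the TPM of all its transcripts was 0.75 and 0.62 times the resting value. Srsf3 had coding shares of 24.0% and 44.2% in ΔleftPAL and 18.6% and 41.8% in ΔIRIS cells. Its coding TPM rose from 40.9 to 129.6 and from 45.5 to 144, and its transcript for nonsense-mediated decay went from 43.4% to 32.4% and from 50.9% to 27.8%. By estimated counts that decay share went from 31.0% to 28.2% and from 38.6% to 25.2%, under 10 points in ΔleftPAL cells, and the decay TPM was 1.28 times the resting value in ΔleftPAL and 0.770 times in ΔIRIS cells. Among the 31 members the coding TPM rose at least 2-fold in both genotypes in 12, against 14.6% of genes of this kind, and the TPM of all transcripts in 6, against 10.2%. In Sf3b1 and Srsf5 the coding share was higher after LPS (50.3% and 71.9%, and 49.2% and 71.8%, in ΔleftPAL) although the coding TPM was not. Hnrnpdl went the other way, with coding shares of 65.2% and 52.1% in ΔleftPAL and 67.7% and 56.0% in ΔIRIS cells, and decay shares of 21.7% and 40.3%, and 21.7% and 35.8%.

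**Figure D4:**
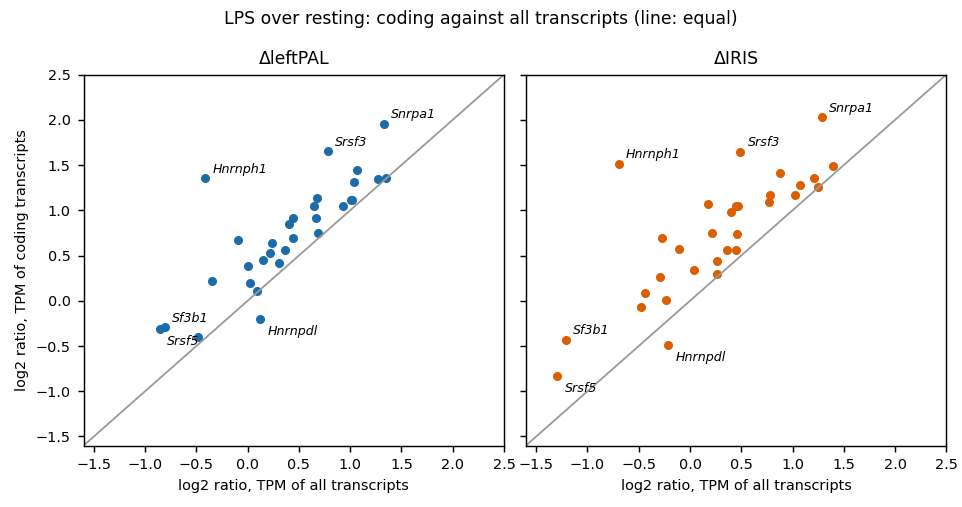
Log2 ratio, LPS over resting, of the TPM of coding transcripts against that of all transcripts of each of the 31 members, with ΔleftPAL on the left and ΔIRIS on the right and a line where both are equal. Hnrnph1 lies furthest above the line in both genotypes, and Hnrnpdl lies below it.

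The Srsf3 decay transcript takes in an exon at chr17:29039454-29039909 (mm10, plus strand, 456 bases) that the coding transcript skips. Its first bases up to the stop codon are shown, with the stop in capitals, because they are what ends the reading frame.
Srsf3 exon: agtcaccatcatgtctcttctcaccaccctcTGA
For 4 of the retained intron transcripts whose share fell, 1 kept intron each is shown by its edges. The edges are 10 bases of exon and 10 of intron at the start, and 18 of intron and 10 of exon at the end. They come from GENCODE M21, with the first and last intron bases in capitals. The introns lie between coding exons at chr17:29038625-29040774 (plus) in Srsf3, chr1:55014563-55016375 (minus) in Sf3b1, chr2:162932143-162933425 (plus) in Srsf6 and chr2:75661818-75661895 (plus) in Hnrnpa3.
Srsf3 start: ctcggcgcagGTacttgaga
Srsf3 end: tactgtttctgcttctAGatccccaaga
Sf3b1 start: tttgcagatgGTaattcttt
Sf3b1 end: tgctgttcttttctgcAGgagggaagac
Srsf6 start: ggaagccgcaGTgagtcctt
Srsf6 end: tcccttcatgtgataaAGgtggtggagg
Hnrnpa3 start: ttctagagagGTattttaat
Hnrnpa3 end: taattattttatttgtAGgattctgtaa
All 4 begin with GT and end with AG. The Srsf3 transcript that keeps the intron shown also keeps another at chr17:29040814-29041206. It took 28.1% of the gene's TPM in resting and 6.6% in activated ΔleftPAL cells, and 23.8% and 6.9% in ΔIRIS cells. The Sf3b1 transcript took 24.4% and 11.4%, and 31.0% and 10.6%. The Srsf6 transcript took 22.6% and 10.6%, and 22.5% and 10.5%. The Hnrnpa3 transcript took 23.6% and 5.6%, and 15.5% and 4.6%, but by estimated counts only 3.8% and 0.97%, and 2.4% and 0.83%. In all 4 both activated libraries were below both resting ones. By TPM, the summed retained intron share of Srsf3 moved less, from 32.6% to 23.4% in ΔleftPAL and from 30.5% to 30.3% in ΔIRIS cells. Another retained intron transcript took 4.25% and 16.9%, and 6.70% and 23.4%, but gained only 4.8 and 6.6 points by estimated counts. The summed retained intron estimated counts went from 3673 to 2762 in ΔleftPAL and from 5527 to 4210 in ΔIRIS cells. Those of the whole gene went from 8070 to 14779 and from 13187 to 18707.

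The other members with an isoform change are given by the transcript that moved most on average over the genotypes, with the share at rest and after LPS in ΔleftPAL and then in ΔIRIS cells. Among SR protein genes, the main coding transcript of Srsf11 took 20.6% and 40.3%, and 20.2% and 46.3%. That of Srsf4 took 49.0% and 65.4%, and 41.1% and 67.4%, and that of Srsf9 took 46.8% and 62.1%, and 48.6% and 64.2%. A retained intron transcript of Srsf1 took 25.5% and 8.1%, and 26.8% and 7.2%. One of Srsf2 took 21.2% and 6.95%, and 23.6% and 6.71%. A noncoding transcript of Srsf10 took 45.0% and 34.4%, and 47.3% and 30.8%. Among spliceosome genes, the main coding transcript of Snrpa1 took 50.4% and 78.5%, and 46.5% and 78.7%, and that of Sf3a1 took 58.6% and 70.2%, and 46.8% and 72.2%. A coding transcript of Snrpa took 4.4% and 22.6%, and 0.0% and 25.3%. A retained intron transcript of Snrpb2 took 32.4% and 18.05%, and 37.7% and 14.2%. Among hnRNP genes, a coding transcript of Hnrnpm took 40.3% and 63.4%, and 35.3% and 66.6%, and one of Hnrnpk took 13.8% and 27.6%, and 13.8% and 27.3%. The coding transcript of Hnrnpu took 26.3% and 39.1%, and 25.8% and 38.0%. In Hnrnpf and Hnrnph2, which have coding transcripts only, 1 coding transcript gained on the others, from 34.7% to 51.8% and from 35.7% to 57.8% in Hnrnpf and from 47.7% to 60.3% and from 42.8% to 53.9% in Hnrnph2. Of the 33 member transcripts called by TPM, 24 also moved by 10 points in both genotypes by estimated counts and 9 did not. By estimated counts the transcript of Sf3a1 gained 2.2 and 5.0 points and that of Hnrnpu 7.2 and 7.3 points, while that of Srsf1 fell by 4.1 and 4.8 points, that of Srsf10 fell by 5.4 and 8.1 points and that of Snrpb2 fell by 7.1 and 13.9 points.

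Pkm, Ptprc and Cd44, whose isoforms hnRNPs are known to control, were read in the same way. The M1 and M2 forms of Pkm depend on Hnrnpa1. Its main transcript took 88.5% and 96.9% of the TPM in ΔleftPAL and 87.7% and 96.6% in ΔIRIS cells. Both changes were under 10 points, and which form this transcript encodes was not determined. For Ptprc, the CD45 gene whose variable exons are repressed by Hnrnpll, the main transcript took 46.0% and 56.8%, and 42.0% and 58.7%, and another coding transcript took 12.3% and 2.49%, and 23.8% and 3.8%, under 10 points in ΔleftPAL cells. For Cd44 the main transcript took 54.9% and 59.4%, and 50.8% and 58.7%, which is under 10 points, while 2 other coding transcripts moved by at least 10 points in both genotypes. One of them took 25.1% and 14.1%, and 25.8% and 11.9%, and the other 5.67% and 18.1%, and 12.7% and 23.4%.

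Between the genotypes, no member was 2-fold apart at rest, against 2.85% of all genes, nor after LPS, against 1.98%. Taken as ΔIRIS over ΔleftPAL, the members had a median log2 ratio of 0.22 at rest and 0.14 after LPS, against 0.00 and 0.03 for all genes, and 43 and 44 of the 50 members lay above 0, as did 50.04% and 54.9% of all genes. At 1.5-fold, 1 member was higher in ΔIRIS at rest, against 6.74% of all genes, and 0 lower, against 4.27%. After LPS 1 was higher, against 1.96%, and 1 lower, against 4.50%. Hnrnph1 was the one at rest, at 676 CPM in ΔIRIS and 450.0 CPM in ΔleftPAL cells. Hnrnpa3 was the one higher after LPS, at 322 and 203 CPM, a log2 ratio of 0.67 that was 0.46 with kallisto estimated counts. Hnrnpll, the CD45 exon repressor, was the one lower after LPS, 2.07-fold in CPM but under 2-fold once 0.5 CPM is added. It had 98 and 190 counts in resting and activated ΔleftPAL cells and 179 and 100 counts in ΔIRIS cells, or 4.01, 7.05, 6.16 and 3.41 CPM. The 4 values cross, with the resting library higher in ΔIRIS and the activated one higher in ΔleftPAL cells. All 4 plasmablast genes were also lower in activated ΔIRIS than in activated ΔleftPAL cells, and in 2 of them, as in Hnrnpll, the level was higher after LPS in ΔleftPAL and lower in ΔIRIS cells. In resting and activated ΔleftPAL and then ΔIRIS cells, Sdc1 was measured at 12.7, 17.9, 17.9 and 13.2 CPM and Irf4 at 285, 458, 604 and 392 CPM. Their part in the values of Hnrnpll was not tested.

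**Figure D5:**
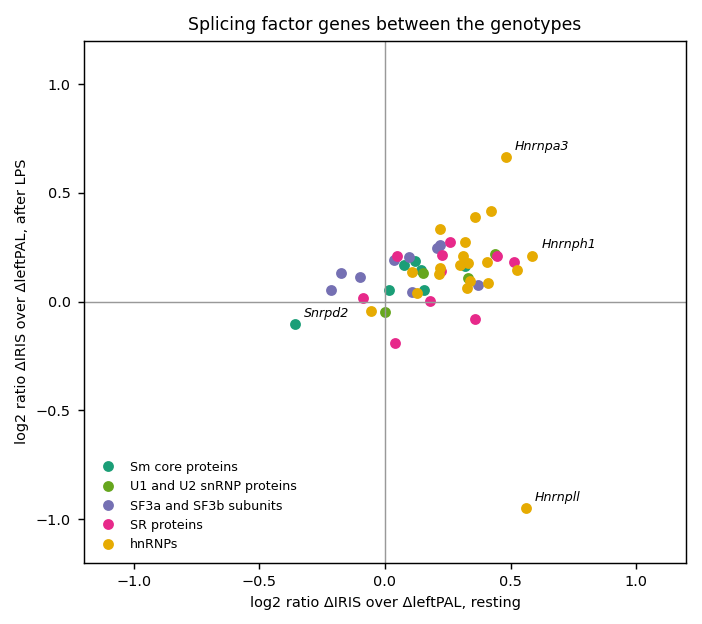
Log2 ratio of ΔIRIS over ΔleftPAL at rest (horizontal) and after LPS (vertical) for the 50 members, coloured by role. Most members lie a little above 0 on both axes, and Hnrnpll is alone at the lower right, at 0.56 and -0.95.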

How the data were processed

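The authors mapped reads of 150 nt with STAR 2.4.0a to mm10 and deposited raw counts per gene name from featureCounts (Subread 1.4.6-p1), with multi-mapping reads counted. They also deposited kallisto 0.42.3 estimated counts per transcript, not normalized, and kallisto TPM, which the authors left at kallisto's common sum per library. The unnamed row held 0.00876% to 0.0264% of counts and was left out, and 0 per-sample columns were unused. TMM factors came from edgeR 4.0.16 in R 4.3.3 over all named genes. Ratios and intervals used Python 3.11.15, numpy 2.4.6, pandas 2.3.3 and scipy 1.17.1, and figures matplotlib 3.10.9. The procedure was tested on simulated data. No test was made between single libraries, as planned. A fit of LPS with the genotype as a block (edgeR quasi-likelihood, Benjamini-Hochberg adjustment over 11286 genes, 1 residual degree of freedom) was added after seeing the data. Counts of multi-mapping reads can move the level of members with pseudogenes or close relatives.

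Members and lists were chosen with earlier results of these data known. Levels or transcript shares in every library are given for the 3 highest and 3 lowest members of each role, members changed 2-fold on LPS in both genotypes, members 1.5-fold apart between genotypes and members with an isoform change. Transcript types and bases came from GENCODE M21, whose exons matched for 268 of 278 member transcripts. The settings varied were library scaling (total counts, size factors of DESeq2 1.42.0, upper quartile factors, TMM without immunoglobulin genes), the kallisto tables, other minimum counts, a prior of 5 CPM and 1.5-fold. TMM on the compared genes and medians of coding shares by estimated counts were added after seeing the data.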

Additional observations from a re-analysis of the deposited data

Results flagged for a closer look

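Hnrnpll stood out because LPS moved its counts one way in ΔleftPAL and the other way in ΔIRIS cells, with both counting intervals clear of 0. Its log2 ratios were 0.74 (0.45 to 1.18) in ΔleftPAL and -0.77 (-1.22 to -0.49) in ΔIRIS cells, a difference of -1.51. It had the fewest counts of the 50 members compared, 98 to 190 per library. The difference between genotypes was not tested, since each group is 1 library.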

How the results depend on the processing

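With the genotype as a replicate block 37 members were higher and 2 lower on LPS at an edgeR adjusted p of 0.05. Without the block 35 were higher and 1 lower (all genes 35.4% and 27.2%), and with DESeq2 36 and 2 (32.1% and 24.4%). Leaving out each library in turn, without the block and with a lone library assumed to vary like the other arm, gave 26 to 40 higher and 1 to 3 lower (all genes 27.0% to 34.5% and 19.6% to 26.5%), with 1 lower without activated ΔleftPAL, resting ΔIRIS or activated ΔIRIS cells and 3 without resting ΔleftPAL cells. The median log2 ratio of all genes on LPS, 0.12 in ΔleftPAL and 0.13 in ΔIRIS cells, became -0.13 and -0.10 with upper quartile factors and -0.20 and -0.18 with kallisto TPM. The members' median of 0.79 in ΔleftPAL cells became 0.70 with total counts, 0.66 with DESeq2 size factors, 0.53 with upper quartile factors, 0.63 with kallisto estimated counts, 0.55 with kallisto TPM and 0.67 with TMM on the compared genes. That of 0.79 in ΔIRIS cells became 0.64 with DESeq2 size factors, 0.55 with upper quartile factors, 0.62 with estimated counts, 0.45 with TPM and 0.63 with TMM on the compared genes. With upper quartile factors, members higher on LPS numbered 12 in ΔleftPAL cells (14.6% of all genes) and 11 in both genotypes (12.4%). With kallisto TPM, 12 were higher and 2 lower in ΔIRIS cells (13.4% and 22.1%). At 1.5-fold, 35 were higher in each genotype (32.8% and 33.9%) and 32 in both (28.8%), 1 was lower in ΔleftPAL (25.6%) and 3 in ΔIRIS cells (26.4%), and 1 at rest (11.01%) and 2 after LPS (6.46%) were apart between genotypes. After LPS, the median between genotypes was 0.078 with estimated counts and 0.079 with TPM, and 1 member, Hnrnpll, was 2-fold apart with estimated counts (-1.01), as were 2.04% of genes. Members with an isoform change numbered 6 at 20 points, where 11.2% of all genes changed. No called ratio of a named member changed sign. Coding shares taken from estimated counts moved beyond counting error in 33 comparisons and within it in 7. The coding share of Hnrnpu rose by 12.8 and 12.2 points by TPM and by 7.2 and 7.3 points by estimated counts, and that of Srsf1 by 17.3 and 22.8 and by 5.2 and 7.7 points. The causes of these shifts were not tested.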
